A study of Mus musculus with 93 samples.

Results

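Tcfec, Tcfeb, Tcfe3 and Mitf are the 4 genes of the MiT/TFE family of transcription factors, and their RNA was followed in 12 libraries of mouse embryonic stem cells. They were taken by name from tables of 33924 gene names. Tcfec was chosen because it rose from a count of 0 in Ring1b mutant cells, so its values in that comparison are a description, given with no test; Tcfeb, Tcfe3 and Mitf were added as its relatives. RefSeq names the first 3 Tfec, Tfeb and Tfe3.

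The 12 libraries were total RNA libraries of the R1 embryonic stem cell line, grown with fetal bovine serum and leukaemia inhibitory factor, out of 93 samples of a study of histone H2A ubiquitination and linker histone H1. They form 2 sets, and each set has its own wild type. In set 1, 3 wild-type libraries stand beside 3 Ring1b I53A libraries, which carry a substitution in the ubiquitin ligase subunit of Polycomb repressive complex 1. In set 2, 3 wild-type libraries stand beside 3 libraries labelled QKO, for a quadruple knockout of the H1 variants b, c, d and e. The labels do not say whether a mutant line was 1 clone or whether replicates were separate cultures, so each p-value below speaks of library-to-library spread, part or all of which may be technical.

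MiT/TFE proteins bind DNA through a basic helix-loop-helix leucine zipper and act as dimers with themselves or with each other. Tcfeb and Tcfe3 are known as drivers of lysosomal and autophagy genes: when nutrients are plentiful, mTORC1 and the Rag GTPases at the lysosome hold them in the cytoplasm, and folliculin (Flcn) with its partners Fnip1 and Fnip2 takes part in that control. Mitf is best known as the master regulator of pigment cells and also acts in osteoclasts, and Tcfec is known mainly from macrophages and osteoclasts. In embryonic stem cells, nuclear Tcfe3 is known to favour self-renewal, with Esrrb as one of its targets. Counts of RNA say nothing of where these proteins are in the cell.

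Libraries held 12585621 to 23378930 counts, and the lowest totals were those of replicate 3 in set 1, with 13205478 for wild type and 12585621 for I53A. The table of replicate 3 is also named in another style than the other set 1 tables. In both groups, its counts differed more from replicates 1 and 2 than these did from each other. Values of replicates 1 and 2 alone are therefore given where they end or add a call of a named gene. Rnf2, the gene for Ring1b, had 3427, 3380 and 2324 counts in set 1 wild type and 1771, 1702 and 1086 in I53A, a fall of 1.00 ± 0.08 on the log2 scale (edgeR adjusted p = 5.6e-05). Of the 4 H1 genes in the QKO label, 3 had enough counts to test and 0 were lower (edgeR, adjusted p; also 0 at an unadjusted p under 0.05, by edgeR and by DESeq2), while Hist1h1b was higher by 3.52 log2 units. H1 counts were mostly low: per library of set 2, Hist1h1d held 3 to 15, Hist1h1e 0 to 12 and Hist1h1c 129 to 205. Hist1h1b held 2 to 9 per wild-type library there, against 53 to 72 per QKO-labelled one. A fall from counts as low as those of Hist1h1d or Hist1h1e could be missed. A count over a whole gene also cannot show a small deletion. Whether the H1 genes were disrupted was thus not tested, and the group is called the libraries labelled QKO throughout. In set 1, the 15 pluripotency markers summed to between 7084 and 7297 CPM (counts scaled to library size) in wild type and 5967 to 6122 in I53A; in set 2, to between 7792 and 7984 in wild type and 9179 to 9332 in the libraries labelled QKO.

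The 4 genes differ in the sequence before their start sites, shown here because Tcfec, the gene with no reads in wild-type cells of set 1, stands apart from the leading windows of its relatives in CpG content. Each line is the 250 bases before an annotated RefSeq start (GRCm38.p6), read 5′ to 3′ on the gene's strand, with CpG dinucleotides in capitals. All 4 genes were matched in RefSeq, with 9 start sites in all; the first window of each gene is printed, and for Mitf also the most downstream one.

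Tcfec, chr6:16898442-16898691, minus strand: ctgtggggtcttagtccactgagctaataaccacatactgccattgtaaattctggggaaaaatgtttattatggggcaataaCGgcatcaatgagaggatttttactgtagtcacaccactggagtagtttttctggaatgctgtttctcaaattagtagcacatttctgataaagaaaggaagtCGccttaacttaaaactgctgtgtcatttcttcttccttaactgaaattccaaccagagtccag
Tcfeb, chr17:47736787-47737036, plus strand: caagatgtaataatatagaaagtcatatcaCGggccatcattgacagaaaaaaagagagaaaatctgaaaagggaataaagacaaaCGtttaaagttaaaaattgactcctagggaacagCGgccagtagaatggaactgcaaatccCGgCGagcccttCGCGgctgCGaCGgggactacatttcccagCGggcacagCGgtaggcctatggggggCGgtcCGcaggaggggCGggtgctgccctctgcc
Tcfe3, chrX:7762411-7762660, plus strand: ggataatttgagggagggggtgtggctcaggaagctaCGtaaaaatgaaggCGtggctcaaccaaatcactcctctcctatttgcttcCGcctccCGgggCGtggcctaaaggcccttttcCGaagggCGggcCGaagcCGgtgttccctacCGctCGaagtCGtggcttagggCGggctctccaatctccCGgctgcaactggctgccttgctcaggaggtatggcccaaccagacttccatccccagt
Mitf, chr6:97806808-97807057, plus strand: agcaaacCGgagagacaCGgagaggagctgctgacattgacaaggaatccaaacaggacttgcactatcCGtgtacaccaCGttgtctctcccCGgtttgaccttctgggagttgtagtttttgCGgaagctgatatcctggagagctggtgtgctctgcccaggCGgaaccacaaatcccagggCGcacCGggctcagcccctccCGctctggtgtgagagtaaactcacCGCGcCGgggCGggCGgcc
Mitf (most downstream start), chr6:97991533-97991782, plus strand: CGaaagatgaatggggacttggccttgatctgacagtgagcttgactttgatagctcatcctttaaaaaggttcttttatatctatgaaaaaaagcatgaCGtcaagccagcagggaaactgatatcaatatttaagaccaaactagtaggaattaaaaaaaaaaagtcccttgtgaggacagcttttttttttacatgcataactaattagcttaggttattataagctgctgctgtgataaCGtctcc

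The Tcfec window held 2 CpG dinucleotides, at a GC content of 39.2% and an observed-to-expected CpG ratio of 0.208, and 31% of 32851 RefSeq windows of the same length had a lower ratio. The first windows of Tcfeb, Tcfe3 and Mitf held 14, 14 and 15 CpG dinucleotides, with ratios of 0.86, 0.631 and 0.676, against a median ratio of 0.373 over all windows. Those 3 genes also had starts with fewer: the most downstream Mitf window held 3, and the second Mitf window 4, at a ratio of 0.19, lower than that of Tcfec. The other Tcfeb windows held 20 and 6, and the second Tcfe3 window 6. Counts per gene do not tell which start was used.

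Motifs that MiT/TFE proteins are known to bind were searched on both strands of the 9 windows. The palindrome CACGTG had 0 matches, and 6.02% of all windows held it. TCACGTG, which contains it and whose other strand reads CACGTGA, had 0 matches, against 3.13% of all windows. TCATGTG, whose other strand reads CACATGA, also had 0 matches, against 3.25% of all windows.

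Tcfec RNA was seen almost only in the I53A libraries. The gene lies on chromosome 6 at 16783381 to 16848441 on the minus strand (mm9, as in the tables), with 1779 bases of exon. Its count was 0 in each of the 3 wild-type libraries of set 1 and was 95, 143 and 47 in I53A replicates 1, 2 and 3. In CPM, the I53A libraries held 5.01, 7.7 and 3.5, a mean of 5.41 ± 2.13 (SD, n = 3).

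All 3 I53A libraries lay above all 3 wild-type libraries, and I53A replicate 2 held 2.2 times the level of I53A replicate 3. Against the limit that a count of 0 allows, taken as 3 counts over the wild-type group or 0.0579 CPM, the mean of Tcfec was at least 93.4-fold higher in I53A, and at least 73.6-fold higher without replicate 2. Intervals and limits of this kind cover counting error only. The I53A mean was 4.26 CPM without replicate 2 and 6.36 without replicate 3.

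In set 2, Tcfec stayed at the edge of detection: wild-type replicates 1 to 3 had counts of 1, 0 and 0, and the libraries labelled QKO had 2, 0 and 0. Both groups were at or under 3 counts in all, so no fold is given and Tcfec was not tested there. The 6 libraries of set 2 thus held 3 Tcfec counts in all, and the 3 I53A libraries 285.

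**Figure D1:**
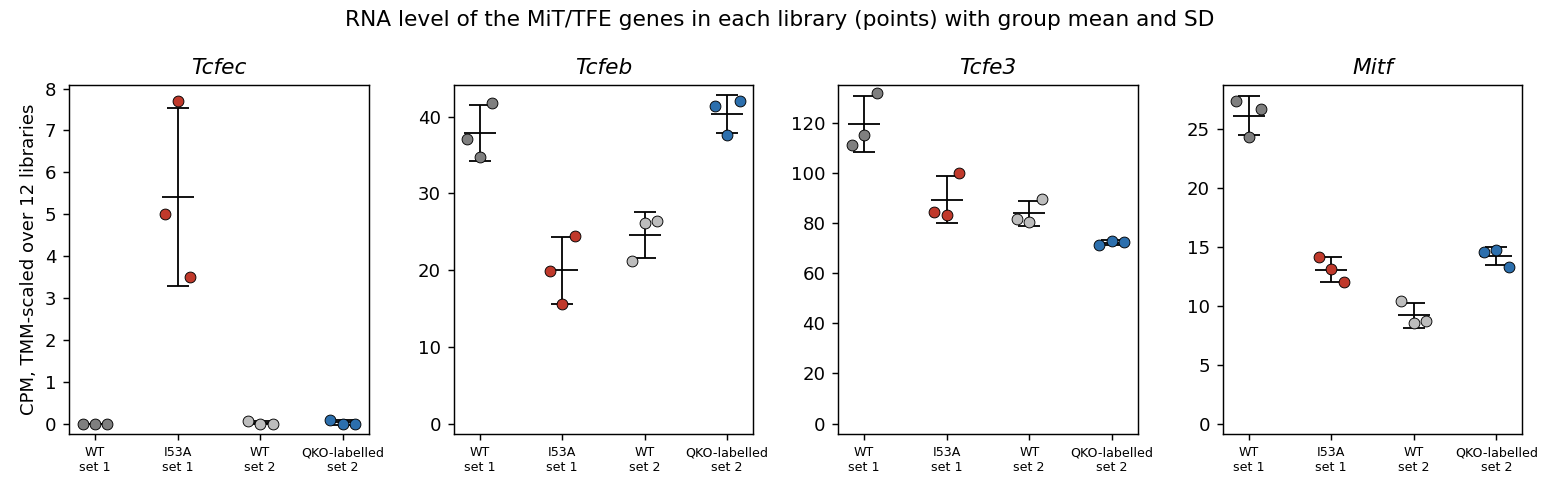
RNA level of Tcfec, Tcfeb, Tcfe3 and Mitf in CPM (vertical axes, 1 scale per gene, all from 0) in each of 12 libraries, grouped as wild type and I53A in set 1 and wild type and QKO-labelled in set 2; points are replicates 1 to 3 from left to right, and bars give the mean and SD. Tcfec is at 0 in set 1 wild type and between 3.5 and 7.7 CPM in I53A, while Tcfeb and Mitf are lower than wild type in I53A and higher in the libraries labelled QKO.

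Mitf RNA fell by 1.01 ± 0.11 (SE) on the log2 scale in I53A and rose by 0.63 ± 0.11 in the libraries labelled QKO. The gene spans 97757052 to 97971352 on the plus strand of chromosome 6 (mm9), with 6233 bases of exon. It overlaps the antisense gene Gm15531, from which reads cannot be told apart without strand; that gene was listed at 0 CPM in all 4 groups.

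In set 1, wild-type replicates 1 to 3 held 517, 459 and 374 Mitf counts, or 27.4, 24.3 and 26.7 CPM. The I53A replicates held 267, 243 and 161 counts, or 14.1, 13.1 and 12 CPM. Each I53A library was below each wild-type library, and the 3 same-numbered pairs gave log2 ratios of -0.96, -0.89 and -1.15. Mean Mitf was 26.1 ± 1.65 CPM in wild type and 13.1 ± 1.04 in I53A (SD, n = 3 each), and the fall had an edgeR adjusted p of 2.9e-04.

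In set 2, wild-type replicates held 170, 146 and 177 Mitf counts, or 10.4, 8.51 and 8.68 CPM. The libraries labelled QKO held 325, 225 and 269 counts, or 14.6, 14.7 and 13.3 CPM. All 3 were above all 3 wild-type libraries, with means of 14.2 ± 0.812 against 9.2 ± 1.04 CPM (edgeR adjusted p = 3.5e-06). The change in I53A lay 1.62 ± 0.15 log2 units below the change in set 2 (log2 difference -1.62, edgeR interaction term, adjusted p = 1.5e-06).

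Tcfeb moved in the same directions as Mitf, falling by 0.94 ± 0.17 on the log2 scale in I53A and rising by 0.72 ± 0.08 in the libraries labelled QKO. It lies on chromosome 17 at 47873979 to 47929368 on the plus strand (mm9), with 5669 bases of exon. Set 1 wild-type replicates held 700, 657 and 586 counts, or 37.1, 34.7 and 41.8 CPM. The I53A replicates held 377, 289 and 327 counts, or 19.9, 15.6 and 24.4 CPM.

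The 2 groups did not overlap, and the pairs of the same number gave log2 ratios of -0.90, -1.16 and -0.78. Means were 37.9 ± 3.59 CPM in wild type and 19.9 ± 4.41 in I53A (edgeR adjusted p = 0.00314). With replicates 1 and 2 alone, the log2 change was -1.03.

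In set 2, Tcfeb counts were 347, 450 and 538 in wild type, or 21.2, 26.2 and 26.4 CPM, and 920, 575 and 854 in the libraries labelled QKO, or 41.4, 37.6 and 42.1 CPM. The lowest library labelled QKO stood above the highest wild-type library. Means were 24.6 ± 2.94 and 40.4 ± 2.4 CPM (edgeR adjusted p = 2.0e-11). The difference between the effects was -1.64 ± 0.19 log2 units (edgeR interaction term, adjusted p = 1.4e-05), close in size to that of Mitf.

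Tcfe3, the most abundant of the family, fell in both comparisons and by less. It lies on chromosome X at 7339686 to 7352328 on the plus strand (mm9), with 9261 bases of exon. In set 1, its counts were 2090, 2181 and 1850 in wild type (111, 115 and 132 CPM) and 1599, 1547 and 1341 in I53A (84.4, 83.3 and 100 CPM). The groups did not overlap, and replicate 3 was the highest of each, so that the pairs gave a narrow span of log2 ratios, -0.39, -0.47 and -0.40.

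The Tcfe3 means were 119 ± 11.1 CPM in wild type and 89.2 ± 9.32 in I53A, and the log2 change was -0.44 ± 0.11 (edgeR adjusted p = 0.0135). The call was lost without I53A replicate 1, at an adjusted p of 0.064, and without I53A replicate 2, at 0.0573; the other 11 of 13 alternatives kept it, with adjusted p from 3.4e-07. In set 1, the 2 libraries of replicate 3 deviated together, while replicates 1 and 2 were not told apart as pairs. With the replicate number as a block in edgeR, the change was again -0.44, with an adjusted p of 7.4e-07.

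In set 2, Tcfe3 counts were 1334, 1381 and 1823 in wild type (81.6, 80.5 and 89.4 CPM) and 1584, 1114 and 1471 in the libraries labelled QKO (71.2, 72.9 and 72.5 CPM). These also did not overlap, with means of 83.8 ± 4.85 and 72.2 ± 0.884 CPM and a log2 change of -0.21 ± 0.05 (edgeR adjusted p = 5.1e-04). The difference between both Tcfe3 effects was -0.20 ± 0.12 and did not pass the test (adjusted p = 0.188). It passed with the replicate number as a block, at the same -0.20 and an adjusted p of 0.0128, and with replicates 1 and 2 alone in set 1, at -0.21 and 0.0263, within a range of 0.0128 to 0.354 over 18 alternatives.

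Each of these 3 genes passed the filter on low counts in both sets. In set 1, 3 of 3 were called lower, where 17.4% of 15536 genes tested were called lower and 35.5% were called in either direction; the comparison is the one that chose Tcfec, so nothing is read from that share. In set 2, 3 of 3 were called, 2 higher and 1 lower, where 28.7% of 15439 genes tested were called higher and 29.0% lower, 57.7% in all. The groups did not overlap for 49.2% of genes in set 1 (23.7% lower) and 61.4% in set 2 (30.1% higher, 31.3% lower). For the difference between effects, 2 of 3 were called, against 36.1% of 16501 genes. In these bulk libraries, fewer cells that hold an RNA and less of it per cell cannot be told apart.

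**Figure D2:**
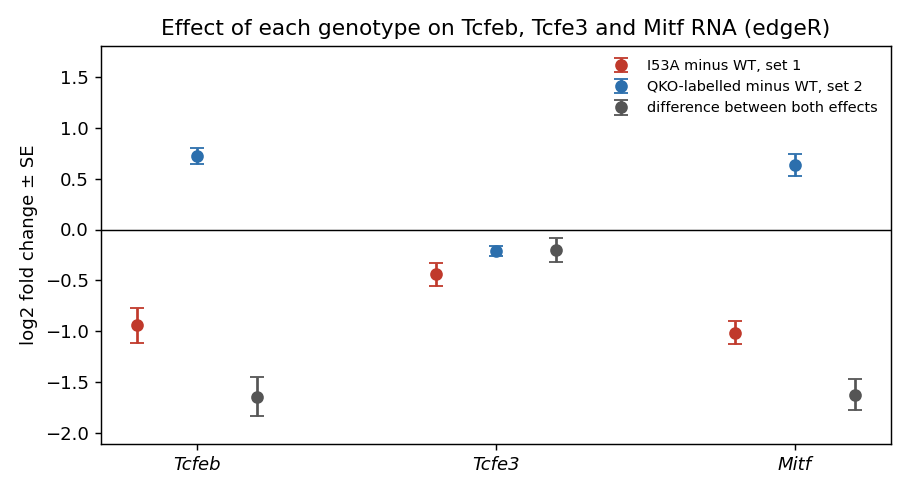
Log2 fold change with its SE (vertical axis) of Tcfeb, Tcfe3 and Mitf for I53A minus wild type in set 1, for QKO-labelled minus wild type in set 2, and for the difference between both effects, from edgeR with 3 libraries per group. Tcfeb and Mitf lie below 0 in I53A and above 0 in the libraries labelled QKO, with differences of -1.64 and -1.62, while Tcfe3 lies below 0 in both.

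Levels between genes were compared per kilobase of exon. The length joins all annotated exons of a gene, 1779 bases for Tcfec and 5669 to 9261 for the others, and can exceed that of any 1 transcript. The ranks and shares between genes below thus depend on the annotation, and the transcripts in use were not tested. In set 1 wild type, the order was Tcfe3 at 12.9 CPM per kilobase, Tcfeb at 6.68 and Mitf at 4.19, with Tcfec at 0 and no overlap between neighbours in the order. In I53A, it was Tcfe3 at 9.63, Tcfeb at 3.52, Tcfec at 3.04 and Mitf at 2.1. The Tcfec libraries there, from 1.97 to 4.33 CPM per kilobase, overlapped those of Tcfeb and of Mitf, so those ranks do not differ beyond the spread.

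In set 2, Tcfe3 led wild type at 9.05 CPM per kilobase, with Tcfeb at 4.34 and Mitf at 1.48. In the libraries labelled QKO, Tcfe3 was at 7.8 and Tcfeb at 7.12, still without overlap, and Mitf was at 2.28. The gap between Tcfe3 and Tcfeb was therefore smallest in that group.

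Summed per kilobase, the 4 genes came to 23.8 ± 1.86 in set 1 wild type and 18.3 ± 0.653 in I53A, and to 14.9 ± 0.741 in set 2 wild type and 17.2 ± 0.297 in the libraries labelled QKO (SD, n = 3 each). Tcfec made up 15.9%, 23.8% and 10.4% of the sum in I53A replicates 1 to 3. Tcfe3 made up 54.2% ± 1.73 in set 1 wild type, 52.6% ± 3.8 in I53A, 60.8% ± 1.42 in set 2 wild type and 45.3% ± 1.23 in the libraries labelled QKO. So the I53A sum was lower than in its wild type with Tcfec included, and the largest share of Tcfeb and Mitf together was in the libraries labelled QKO.

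The 2 wild-type groups were not alike for this family. Set 1 wild type held 2.84 times the Mitf, 1.54 times the Tcfeb and 1.42 times the Tcfe3 of set 2 wild type in CPM, with no overlap of libraries. The cell stocks, the time of work and the sequencing of the 2 sets cannot be told apart, so each mutant was compared only with the wild type of its own set.

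**Figure D3:**
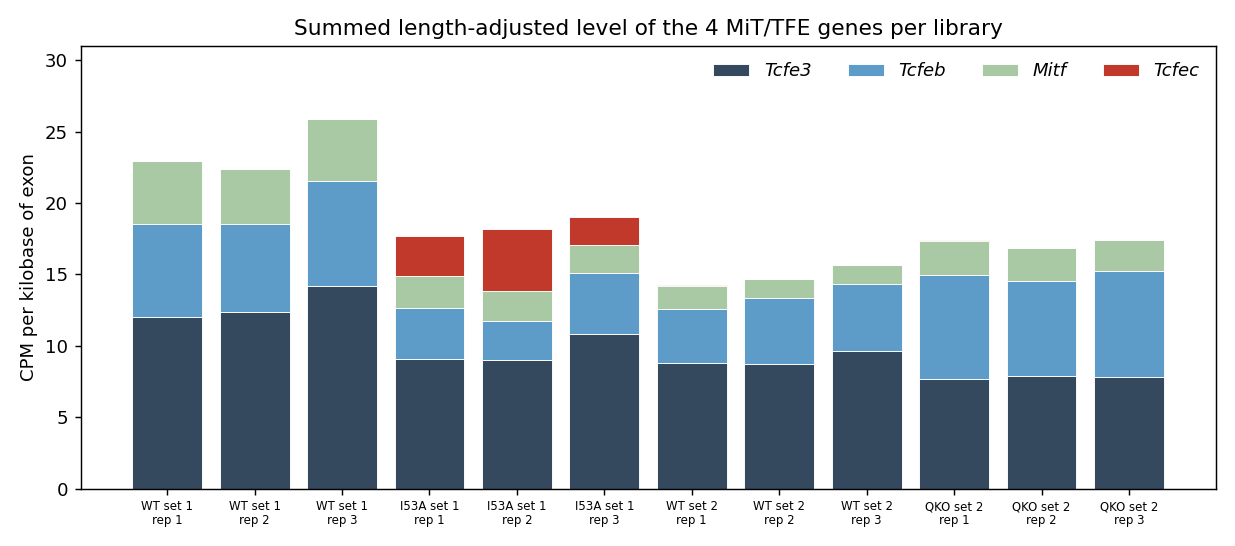
Summed level of the 4 genes in CPM per kilobase of exon (vertical axis, from 0) in each of the 12 libraries, stacked by gene; the last 3 bars are the libraries labelled QKO. Tcfec adds a visible segment in the 3 I53A libraries only, and Tcfe3 is the largest segment in each library.

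Regulators that couple MiT/TFE proteins to nutrients changed in both directions. Of 36 genes for the Rag GTPases, the Ragulator, mTORC1, folliculin and calcineurin, all tested, 6 rose and 10 fell in I53A, with a median log2 change of -0.08, beside -0.00 over all genes tested. That is 16.7% and 27.8% of the list, beside 18.1% and 17.4% of all genes. Rragb and Rragd, which encode Rag GTPases, fell by 1.81 ± 0.16 and 1.21 ± 0.10 on the log2 scale (edgeR adjusted p = 1.1e-04 and 7.9e-05), and Rraga, the close paralog of Rragb, rose by 0.50 ± 0.10 (0.00488). Rragb went from 19.4 ± 2.83 CPM in wild type to 5.6 ± 0.742 in I53A, and Rragd from 44.4 ± 3.38 to 19.3 ± 1.32.

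Fnip1 and Fnip2, the folliculin partners, fell by 0.39 ± 0.09 and 0.44 ± 0.10, while Flcn itself was at -0.12 ± 0.09 and did not pass (adjusted p = 0.345). Mcoln1, the lysosomal calcium channel upstream of calcineurin, fell by 0.49 ± 0.12 (edgeR adjusted p = 0.012), a call lost without wild-type replicate 1 (0.0568) and without I53A replicate 1 (0.058). Deptor, an inhibitor of mTOR, fell by 0.58 ± 0.11, and Sesn1, a leucine sensor family member, and Akt1s1, an mTORC1 inhibitor, rose by 0.65 ± 0.11 and 0.50 ± 0.11. With the replicate number as a block, 12 genes of the list were higher and 13 lower in I53A, instead of 6 and 10.

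Of the same 36 genes, 11 rose and 9 fell in the libraries labelled QKO, with a median of 0.01, beside -0.00 over all genes. The share called, 55.6%, was near the 57.7% of all genes. The calcineurin subunits Ppp3cb and Ppp3ca, which dephosphorylate Tcfeb, rose by 0.89 ± 0.04 and 0.55 ± 0.06 (edgeR adjusted p = 7.6e-24 and 1.7e-10), and Nprl3, of the GATOR1 complex, rose by 0.38 ± 0.07. Rragd fell by 0.91 ± 0.08, Deptor by 0.52 ± 0.06, 2400001E08Rik (Lamtor1, the Ragulator anchor) by 0.40 ± 0.06 and Mcoln1 by 0.25 ± 0.07. Flcn was at 0.13 ± 0.06 (adjusted p = 0.0666), Fnip1 at -0.08 ± 0.06 and Fnip2 at -0.06 ± 0.06, none of them called.

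Lysosomal genes known as MiT/TFE targets were also called in both directions. Of 37, all tested, 7 rose and 10 fell in I53A (median -0.03), and 7 rose and 13 fell in the libraries labelled QKO (median -0.03). The shares called were 45.9% and 54.1%, beside 35.5% and 57.7% of all genes. In I53A, the proteases Ctsl and Ctsz and the acid lipase Lipa rose by 1.26 ± 0.18, 0.80 ± 0.11 and 0.77 ± 0.13, while the membrane receptor Scarb2 fell by 0.89 ± 0.09. Ctsl had the largest rise, from 155 ± 27.2 to 374 ± 78.4 CPM. With the replicate block, 12 were higher and 14 lower in I53A, instead of 7 and 10.

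The protease Ctsb, the galactosidase Glb1 and Ctsl rose in the libraries labelled QKO, by 0.63 ± 0.04, 0.55 ± 0.05 and 0.29 ± 0.05, the last not called with the spread taken from all 12 libraries (adjusted p = 0.16). The glycan-degrading enzymes Hexa, Naglu and Neu1, fell by 1.08 ± 0.09, 0.98 ± 0.20 and 0.97 ± 0.10. Gpnmb, a melanosomal and lysosomal glycoprotein used as a marker of MiT/TFE activity, was at -0.64 ± 0.29 in I53A and 0.38 ± 0.36 in the libraries labelled QKO, and passed in neither (edgeR adjusted p = 0.121 and 0.381). With replicates 1 and 2 alone in set 1, Gpnmb passed, at -0.75 (0.0416).

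Of 25 genes for the v-ATPase, the proton pump that acidifies the lysosome, 21 were tested. The share called was 9.52% in I53A and 61.9% in the libraries labelled QKO, beside 35.5% and 57.7% of all genes. In I53A, 0 were called higher by edgeR or by DESeq2 (4 at an unadjusted p under 0.05 by either), and 2 fell, Atp6v0d1 by 0.48 ± 0.10 and Atp6v1b2 by 0.41 ± 0.07, with a list median of 0.05. With the replicate block, 8 were higher and 4 lower. In the libraries labelled QKO, 3 rose and 10 fell (median -0.15): Tcirg1, a subunit best known from osteoclasts, fell by 1.27 ± 0.10 and Atp6v1f by 0.49 ± 0.07, and Atp6v1c2 rose by 1.78 ± 0.35 from a low level of 0.624 ± 0.321 CPM. Atp6v1a, of the catalytic part, and Atp6v0e rose by 0.21 ± 0.04 and 0.25 ± 0.07 (Atp6v0e not with the spread from all 12 libraries, adjusted p = 0.071). Atp6v1g2, at -0.76 ± 0.32, passed by edgeR at an adjusted p of 0.0371. The call was lost with DESeq2 and with the spread from all 12 libraries (adjusted p = 0.142 each). It was also lost without wild-type replicate 1 or 3 or QKO replicate 1 or 3, at edgeR adjusted p of 0.121 to 0.167.

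Of 39 autophagy genes, all tested, 6 rose and 8 fell in I53A (median -0.01), and 10 rose and 15 fell in the libraries labelled QKO (median -0.10). The shares called, 35.9% and 64.1%, were near the 35.5% and 57.7% of all genes. Gabarapl2, an Atg8-family protein of the autophagosome membrane, rose in both, by 1.39 ± 0.18 and 1.50 ± 0.05, and the receptor Optn fell in both, by 0.68 ± 0.16 and 1.29 ± 0.14. In I53A, the initiation factor Rb1cc1 and the lipid scramblase Atg9a rose by 0.52 ± 0.07 and 0.42 ± 0.12, and Atg9b and Atg4c fell by 1.06 ± 0.24 and 0.45 ± 0.14. Gabarapl2 held 24.7 ± 5.81 CPM in set 1 wild type and 111 ± 8.35 in set 2 wild type, so its level differed between the sets by more than between genotypes. The I53A calls of Atg9a, Atg4c and Optn were each lost without 1 of several set 1 libraries, at adjusted p up to 0.102, 0.105 and 0.0595, and with the block 11 were higher and 13 lower.

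In the libraries labelled QKO, Atg10 and the lipid transfer protein Atg2a rose by 0.59 ± 0.20 and 0.49 ± 0.08 (Atg10 not without QKO replicate 3, adjusted p = 0.0511), and the phosphoinositide-binding protein Wipi1 and the protease Atg4a fell by 0.90 ± 0.10 and 0.75 ± 0.15. Sqstm1, the cargo receptor p62 and a known target of Tcfeb, fell by 0.41 ± 0.04 there (edgeR adjusted p = 1.0e-11). In I53A, Sqstm1 was at -0.19 ± 0.07 with an adjusted p of 0.062, and with the replicate block the p was 0.00105 and with replicates 1 and 2 alone 0.00118.

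Genes known as Mitf targets in pigment cells and osteoclasts held the largest changes of any of these lists. Trpm1, a melanocyte channel gene under Mitf control, held 7.35 ± 1.1 CPM in set 1 wild type and 1.91 ± 0.447 in I53A, a fall of 1.94 ± 0.23 on the log2 scale (edgeR adjusted p = 4.3e-04). In set 2, it went from 1.2 ± 0.547 to 5.42 ± 0.73 CPM, a rise of 2.12 ± 0.24 (5.9e-11). Trpm1 was thus lower in I53A and higher in the libraries labelled QKO, as Mitf was, and a link between them was not tested. Other listed targets, below, did not share these directions: Cdk2 fell in both comparisons and Mmp9 rose in both.

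Pmel, a structural protein of melanosomes, fell by 3.13 ± 0.15 in I53A, from 34.6 ± 3.72 to 4 ± 0.491 CPM (edgeR adjusted p = 5.2e-06). In set 2, where Mitf rose, Pmel was at 0.12 ± 0.17 (0.574), with 4.6 ± 0.222 CPM in wild type and 4.98 ± 0.194 in the libraries labelled QKO. In all, 14 of 24 listed targets were tested in set 1, of which 4 rose and 5 fell (median -0.08). In set 2, 12 were tested, of which 5 rose and 3 fell (median 0.09). The shares called were 64.3% and 66.7%, beside 35.5% and 57.7% of all genes. The osteoclast genes Calcr, Mmp9 and Acp5 were among those that rose in I53A, by 1.89 ± 0.44, 1.57 ± 0.28 and 1.12 ± 0.20, and the cell cycle kinase gene Cdk2 fell by 0.54 ± 0.09. The Calcr call was lost without I53A replicate 1 (adjusted p = 0.0546).

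In the libraries labelled QKO, the receptor gene Met and Mmp9 rose by 0.82 ± 0.13 and 0.80 ± 0.28, and Cdk2, Kit and Hif1a fell by 0.32 ± 0.05, 0.30 ± 0.05 and 0.29 ± 0.05. The Mmp9 call was lost with DESeq2 (adjusted p = 0.0708) and without wild-type replicate 2 or QKO replicate 3 (0.117 each). Tyr, the melanin-making enzyme, was at a count of 0 in all groups but I53A, and the 8 pigment cell markers, mostly Pmel, summed to 34.2 to 41.4 CPM in set 1 wild type, 8.94 to 10.9 in I53A, 4.71 to 5.59 in set 2 wild type and 5.77 to 6.7 in the libraries labelled QKO. In set 2 wild type, Tyrp1, Slc45a2 and Oca2 were at 0 as well. Of the 8 markers, 3 had enough counts for the edgeR test in set 1, with 0 called higher in I53A and 1 lower. DESeq2, run without that filter, called 1 higher and 1 lower.

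The other bHLH leucine zipper factors, the Myc, Max and Mlx networks with Usf and Srebf, also bind E-box sequences. Of 17, all tested, 3 rose and 4 fell in I53A (median -0.23), and 8 rose and 6 fell in the libraries labelled QKO (median 0.03). The shares called were 41.2% and 82.4%, beside 35.5% and 57.7% of all genes. Mycn fell in both, by 1.12 ± 0.09 and 0.69 ± 0.05, while Myc rose in both, by 0.82 ± 0.20 and 0.59 ± 0.10, and Mxd4, a Max partner that opposes Myc, rose by 0.55 ± 0.12 and 1.12 ± 0.17. The Myc call in I53A was lost without wild-type replicate 1 (adjusted p = 0.0631) or 2 (0.0537).

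The other genes named by the rule belong to the Myc, Mlx, Max and Usf groups. In I53A, Mlxip rose by 0.50 ± 0.11, and Mga and Mxd3 fell by 0.79 ± 0.14 and 0.63 ± 0.14; with the block, 8 were lower instead of 4. In set 2, Mycl1 rose by 0.75 ± 0.08, and Mlxipl and Usf2 fell by 0.96 ± 0.11 and 0.59 ± 0.07. Esrrb, the Tcfe3 target named above, fell by 0.60 ± 0.07 in I53A (edgeR adjusted p = 5.3e-04). In the libraries labelled QKO, Esrrb fell by 0.30 ± 0.04 (edgeR adjusted p = 6.8e-10). Tcfe3 fell in both as well, where 17.4% and 29.0% of all genes were called lower, and a link was not tested.

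**Figure D4:**
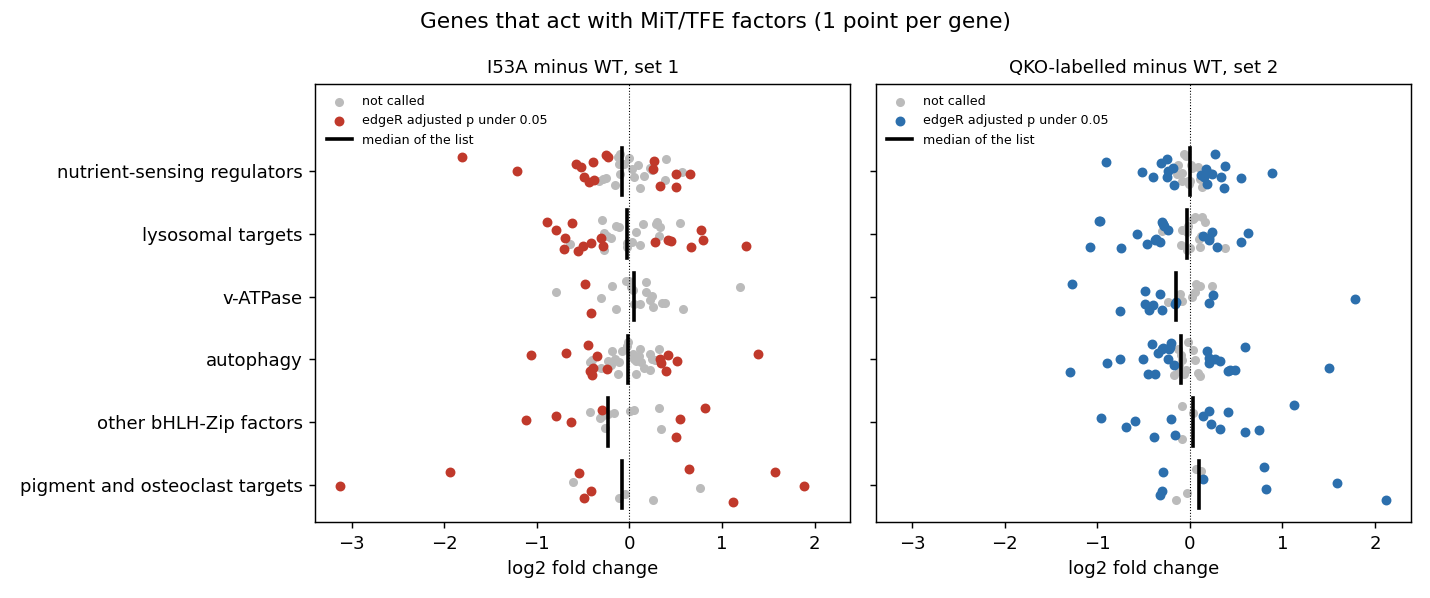
Log2 fold change (horizontal axis) of each tested gene in 6 lists. These are regulators and known targets of MiT/TFE factors, v-ATPase and autophagy genes, and other bHLH leucine zipper factors. The left panel gives I53A minus wild type of set 1, and the right panel QKO-labelled minus wild type of set 2. Coloured points have an edgeR adjusted p under 0.05, and grey points do not. Vertical lines mark the list medians, and the vertical spread within a row is arbitrary. The medians lie between -0.23 and 0.09 in both panels, and called genes stand on both sides of 0 in each list but the v-ATPase in I53A; the point farthest left is Pmel at -3.13.

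Several groups of markers moved with Tcfec in set 1. The 20 primitive endoderm markers summed to 479 to 505 CPM in wild type and 3967 to 4124 in I53A, with Ttr at 0 in wild type. In I53A, 16 of 17 tested were called higher and 1 lower, where 18.1% of all genes were called higher. In set 2, the endoderm markers summed to 376 to 401 CPM in wild type and 473 to 482 in the libraries labelled QKO. There, 9 of 15 tested were called higher and 1 lower, where 28.7% of all genes were called higher. The 12 fibroblast markers summed to 45.4 to 55.7 CPM in set 1 wild type and 99.4 to 125 in I53A, with Lum at 0 in I53A and Postn and Dcn at 0 in wild type; in set 2, they summed to 59.8 to 66 in wild type and 81.8 to 85.5 in the libraries labelled QKO. In bulk libraries, more cells of such a type and more marker RNA per cell cannot be told apart. The part of either in the Tcfec counts or in the falls of Tcfeb, Tcfe3 and Mitf was not tested.

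Markers of macrophages, the cells Tcfec is best known from, had no higher sum in I53A, though single markers differed. The 18 markers summed to 119 to 186 CPM in set 1 wild type and 87 to 135 in I53A, ranges that overlap, with Emr1, Lyz1, C1qa, C1qb and Tyrobp at a count of 0 in wild type and Lyz1, Cx3cr1 and C1qb at 0 in I53A. In the I53A libraries, Emr1 had 2 counts in all, C1qa 1 and Tyrobp 1. Most of the sum was Laptm5, a lysosomal membrane protein, for which wild-type replicates had 1552, 1433 and 1919 counts, against 1451, 1171 and 1461 for I53A. Csf1r, the receptor that macrophages depend on, was low throughout set 1: the wild-type libraries had 0, 0 and 7 counts of it, the I53A libraries 12, 8 and 6. In set 2, they summed to 53 to 60.4 CPM in wild type and 38.7 to 44.6 in the libraries labelled QKO, with Ptprc, Lyz1, C1qa and C1qb at 0 in both groups.

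The genes whose pattern over the 12 libraries was closest to each family member were found among 12708 genes, by the root mean square difference of log2(CPM + 0.5) after centring each gene on its own mean. For Tcfec, they were Clic5 (distance 0.242), Lama1 (0.247), Enpep (0.295), Ctsh (0.299), Habp2 (0.3) and Foxa2 (0.304), beside a median distance of 1.54. Lama1, a laminin chain, and Foxa2, a forkhead factor, are on the primitive endoderm list. Because they were picked for closeness to Tcfec, all 6 were near their lowest level in wild type of both sets and in the libraries labelled QKO. Clic5, Enpep, Habp2 and Foxa2 reached the mean of 1 CPM needed for ranking in I53A only. Clic5 held 0.0529 ± 0.0528 CPM in set 1 wild type and 5.18 ± 0.634 in I53A, and Foxa2 0.0943 ± 0.0564 and 5.17 ± 0.692.

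Ctsh, a lysosomal cysteine protease outside the lists above, went from 2.02 ± 0.763 to 29.2 ± 3.69 CPM, and Lama1 from 74.4 ± 2.82 to 790 ± 20.3. Among the 3 I53A libraries, the highest was 2.2 times the lowest for Tcfec, and between 1.05 times (Lama1) and 1.42 times (Habp2) for the 6 genes. With 1 added to the CPM in place of 0.5, 3 of the 6 stayed among the closest, namely Clic5, Enpep and Habp2.

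**Figure D5:**
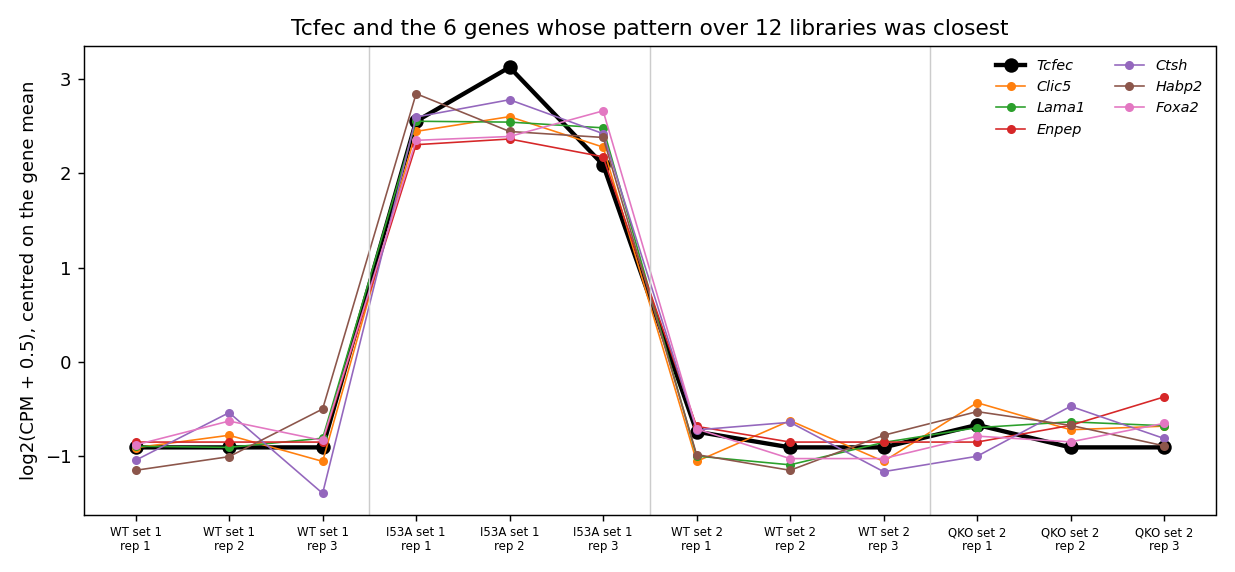
Log2(CPM + 0.5) centred on each gene's mean (vertical axis) over the 12 libraries (horizontal axis, by group; the last 3 are the libraries labelled QKO) for Tcfec in black and the 6 genes closest to it. All 7 lines are high in the 3 I53A libraries only, as the 6 genes were picked for closeness to Tcfec. Among these libraries Tcfec varies more than the 6 genes do, from 3.5 to 7.7 CPM.

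The closest genes to Tcfeb were Fam78a (0.178), Mcph1 (0.192) and Lrch1 (0.193), beside a median distance of 0.57. Fam78a, for example, held 12.2 ± 0.996 CPM in set 1 wild type, 7.46 ± 0.972 in I53A, 10.2 ± 1.53 in set 2 wild type and 15.9 ± 1.32 in the libraries labelled QKO. The closest to Mitf were Ppp1r1a (0.166), Ccdc41 (0.169) and Zfp59 (0.17), beside 0.635, and Ppp1r1a held 25.4 ± 2.5, 12.1 ± 0.757, 7.93 ± 0.351 and 10.9 ± 1.53 CPM in the same order of groups. For Tcfe3, they were Mif4gd (0.0678), Naa40 (0.076) and Gng7 (0.0802), beside 0.43; Mif4gd held 78.9 ± 6.89, 58.2 ± 4.16, 55.8 ± 3.7 and 45.7 ± 0.625 CPM.

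The genes around each family member did not all follow it. Of all genes tested, 18.1% were called higher and 17.4% lower in set 1, and 28.7% and 29.0% in set 2. The counts of neighbours called, here and below, were not tested against these shares and are not read as particular to a neighbourhood. Within 500 kb of Tcfec, 8 genes were annotated and 1 was tested: Tes, a focal adhesion protein gene 166.7 kb away, which rose by 1.47 log2 units in I53A (edgeR adjusted p = 3.8e-05) and by 0.30 in the libraries labelled QKO (0.00467). The caveolin genes Cav1 and Cav2, within the same distance, were at or below 0.283 CPM on average in each group. Around Mitf, 1 of 3 was tested: Frmd4b, 189.5 kb before it, rose by 0.56 in I53A (0.0269) and fell by 0.30 in the libraries labelled QKO (0.0472), each opposite to Mitf.

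Around Tcfeb, 15 of 30 genes were tested in set 1, of which 2 rose and 3 fell, and 16 in set 2, of which 4 rose and 5 fell. Its nearest tested neighbours were Pgc, 2.5 kb before it, which fell by 0.71 in I53A (edgeR adjusted p = 0.0252) and was at 0.20 in the libraries labelled QKO (0.504), and Mdfi, 22.9 kb after it, at -0.31 (0.147) and -0.65 (4.1e-05). Also within 200 kb, Frs3 was at -0.72 in I53A and 0.07 in the libraries labelled QKO, with the first called, and Bysl rose in both, by 0.38 and 0.39. Ccnd3, the cyclin D3 gene, was at -0.16 and -0.66 and Foxp4 at 0.19 and -0.20, both called in set 2.

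Around Tcfe3, in a gene-dense stretch of the X chromosome, 37 of 57 genes were tested in set 1, of which 4 rose and 9 fell, and 36 in set 2, of which 13 rose and 11 fell. The nearest tested neighbours, Ccdc120 at 11.7 kb before it and Gripap1 at 14.6 kb after it, were at -0.25 and -0.26 in I53A, not called, and at 0.35 and -0.21 in the libraries labelled QKO, both called. Within 200 kb, Kcnd1, Ppp1r3f, Eras and Hdac6 fell in I53A, at -1.04, -0.72, -0.66 and -0.47, and Gpkow rose, at 0.38. Of these, Hdac6, a tubulin deacetylase, also fell in the libraries labelled QKO, at -0.44, while Eras, a Ras gene expressed in embryonic stem cells, and Kcnd1 rose there, each at 0.32.

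The other calls within 200 kb of Tcfe3 in the libraries labelled QKO went both ways. Wdr45, an autophagy gene of the WIPI family, rose by 1.38 (edgeR adjusted p = 2.0e-19), Syp by 1.12, Pcsk1n by 0.45, Praf2 by 0.33, Otud5 by 0.26 and Pim2 by 0.25. Slc35a2 fell by 0.53, Prickle3 by 0.41, Pqbp1 by 0.21 and Plp2 by 0.20.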

How the data were processed

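RNA counts of 12 libraries were used; the chromatin samples were not analysed here. The authors deposited raw counts per gene for each library, made, per the file headers, with featureCounts 1.6.3 for read pairs, grouped by gene name, on GENCODE vM1 (mm9), with no strand option and none for reads with several alignments, so overlapping genes and near-identical copies can lose or share reads. HISAT2, featureCounts, DESeq2, Bowtie2 and SAMtools are named without versions in the submitters' processing notes. Exon lengths are those of the deposited tables. Totals were 12585621 to 23378930 counts. Set 1 pairs with replicate 3 differed by a chi-square per degree of freedom of 21.89 to 27.96, and all other replicate pairs by 2.209 to 4.475. Each library was fitted as 1 replicate, though these values do not show whether replicates were separate cultures.

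Counts were tested with edgeR 4.0.16 (R 4.3.3): TMM scaling, filterByExpr, robust quasi-likelihood, two-sided, Benjamini-Hochberg adjustment over all genes tested, threshold 0.05, each set fitted alone, and the difference between effects as an interaction over 12 libraries. The script was tested on simulated data. DESeq2 1.42.0, other filters and scalings, a replicate block and left-out libraries were alternatives. The SE of an edgeR log2 change was its absolute value divided by the square root of the quasi-likelihood F. It thus derives from the test and is no separate estimate of spread. CPM were TMM-scaled over 12 libraries. Same-numbered libraries correlated at 0.229, 0.258 and 0.491 in their deviations in set 1. I53A replicate 1 also correlated with wild-type replicate 2 (0.241), and I53A replicate 2 with wild-type replicate 1 (0.218). Replicates 1 and 2 were thus not told apart as pairs, and replicate 3 stood apart. The main fits held no block, and pairs by number were used for ratios and as an alternative fit only. Family members and lists were chosen with earlier results of these data known. Genes were named by rule: per list and comparison, the up to 3 with the largest called change each way at 1 CPM or more in the higher group, 8 genes in every case (Flcn, Fnip1, Fnip2, Rragd, Mcoln1, Sqstm1, Gpnmb and Esrrb), the closest 6 or 3 genes in pattern, the nearest tested neighbours and called ones within 200 kb. Neighbours at low counts (Cav1, Cav2) were named after their values were seen. Epg5, Tfap4 and Tfcp2l1 were not matched in the tables, and 2 list genes that the rule chose are not reported here.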

Additional observations from a re-analysis of the deposited data

Results flagged for a closer look

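The change in I53A and the change in the libraries labelled QKO, each against its own wild type, were set against each other by an interaction term in edgeR for the 65 genes named in the lists or as family members and tested in both sets; 39 differed at an adjusted p under 0.05. Most of these genes were named for a large called change in 1 of the comparisons, so this share is not set against that of all genes. Values are log2 differences, I53A effect minus QKO effect. Set and mutant cannot be told apart in this difference.

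Of the family, Tcfeb was at -1.64 and Mitf at -1.62. Among Mitf targets, the differences were Trpm1 -4.05, Pmel -3.23 and Acp5 1.17. Trpm1 fell in I53A and rose in the libraries labelled QKO, whereas Acp5 rose in I53A and did not pass in set 2.

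Among nutrient-sensing genes, they were Rragb -1.61, Ppp3cb -1.39, Ppp3ca -0.81, Fnip2 -0.36, Fnip1 -0.29, Sesn1 0.53, Rraga 0.56, Akt1s1 0.61 and 2400001E08Rik 0.82. The lysosomal genes gave Ctsb -0.58, Glb1 -0.54, Hexa 0.60, Lipa 0.63, Ctsz 0.72, Ctsl 0.98 and Neu1 1.29. The v-ATPase genes gave Atp6v1b2 -0.44, Atp6v1a -0.34, Atp6v1f 0.47 and Tcirg1 1.69.

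Among autophagy genes, they were Sqstm1 0.24, Rb1cc1 0.44, Atg9a 0.49, Optn 0.63, Atg4a 0.99 and Wipi1 0.99. The other leucine zipper factors gave Mycl1 -1.05, Mga -0.61, Mxd4 -0.54, Mxd3 -0.52, Mycn -0.41, Mlxip 0.61 and Mlxipl 0.81, and Esrrb gave -0.28.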

How the results depend on the processing

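Of 129 values of the family members under alternatives, 124 kept direction and side of the threshold, 2 lost the call (both Tcfe3 in I53A), 3 gained it (all the Tcfe3 difference between effects) and 0 reversed; of 997 values of the other named genes, 962 kept both, 27 lost the call, 8 gained it and 0 reversed. Leaving out 1 library gave Tcfe3 in I53A from -0.53 to -0.36 and the Tcfe3 difference from -0.29 to -0.13. Without I53A replicate 1 or 2 the Tcfe3 values were -0.40 (adjusted p = 0.064) and -0.38 (0.0573), and without I53A replicate 3 the difference was -0.29 (0.0324). With set 1 replicates 1 and 2 only, chosen after seeing the data, the Tcfe3 difference was -0.21 (0.0263).

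With the replicate block, the Tcfe3 difference was -0.20 (adjusted p = 0.0128), genes called in I53A were 4371 higher and 4427 lower in place of 2808 and 2704, and counts in I53A rose to 12 nutrient-sensing higher and 13 lower, 12 lysosomal higher and 14 lower, 8 v-ATPase higher and 4 lower, 11 autophagy higher and 13 lower, and 8 other leucine zipper factors lower. The block changed no other call of a family member. Set 2 numbers share only a number (correlations of -0.004 to 0.042), and in set 1 not every library correlated best with its own number.

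With set 1 replicates 1 and 2 only, 4146 genes were called lower, with 11 nutrient-sensing higher, 11 lysosomal higher, 7 v-ATPase higher and 4 lower, 15 autophagy lower and 7 other leucine zipper factors lower. With the spread from all 12 libraries, 11 lysosomal and 5 v-ATPase genes were higher in I53A, and 5 nutrient-sensing and 5 other leucine zipper genes higher in the libraries labelled QKO. With no filter on low counts, 1 v-ATPase gene was higher in I53A, and 8 pigment and osteoclast genes in the libraries labelled QKO. Leaving out 1 library gave in I53A 3 to 7 nutrient-sensing genes higher and 6 to 9 lower, 6 to 11 lysosomal lower, 0 to 2 v-ATPase higher and 3 to 8 autophagy lower, and 6 to 13 nutrient-sensing higher in the libraries labelled QKO. The lowest counts came without wild-type replicate 1 or 2 or I53A replicate 1 in set 1, and without QKO replicate 1 in set 2. The cause was not tested. Depth limits Tcfec in the 9 other libraries, where the limit was 0.135 to 0.214 CPM per library.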
